A study of Mus musculus with 11 samples.

Results

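A set of 33 of the 23224 genes in the deposited table was near silent in naive AKP colon cancer organoids and present in every organoid library re-grown from a tumour. A gene belonged to it when it had under 0.5 CPM (the count as a share of the library total, scaled to 1000000) in each of 3 naive libraries and at least 2 CPM in each of 6 tumour-derived libraries. The rule found 37 genes, and 4 of them were dropped by name: Sox17, Igfbp4, Aqp5 and the unnamed gene Gm106. The difference from naive organoids is therefore how the genes were picked, and it is given here as a description with no test.

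Every library came from mouse colon cancer organoids with the genotype AKP, a shorthand in this field for engineered changes in cancer genes, Apc and Trp53 among them; the labels do not spell it out. 3 libraries were from naive organoids that had not been in a mouse. 3 were from organoids re-grown from tumours in C57Bl6 mice, which are immunocompetent, and 3 from tumours in RAG2KO mice, which lack Rag2 and with it mature T and B cells. Naive organoids were delivered orthotopically during colonoscopy, and the cultures grown from the tumours were, in the submitters' words on the design, passaged until cancer cells alone remained. Lentiviral SOX17 overexpression constructs (SOX17OE) put into naive organoids gave 2 further lines, 1 constitutive and 1 dox-inducible, with 1 library each. Whether doxycycline was added, the age and sex of the mice, and the number of clones in a line were not given in the sources used here.

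Many of the 33 genes encode proteins through which epithelial cells signal to each other, fix themselves to their matrix and move. Wnt ligands bind Frizzled receptors and stabilise beta-catenin, which cells without Apc stabilise on their own, and in the colon much of the Wnt supply comes from the mesenchyme. Tgfb3 and the activin subunit made by Inhba signal to SMAD proteins, Smoothened passes on the Hedgehog signal, and netrins and neuropilins guide growing axons and vessels. SOX17 is a SOXF transcription factor of the endoderm and of vessel walls.

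Library totals ranged from 14109182 to 22154456 expected counts, so that 3 counts, the floor used for an absent gene, equal 0.135 to 0.213 CPM. Sox17 itself had 0.0451 to 0.213 CPM in naive, 12.6 to 78.9 CPM in C57Bl6 and 14.9 to 23.2 CPM in RAG2KO libraries, with 72.0 CPM in the constitutive and 4.72 CPM in the inducible line. The ribosomal RNA precursor Rn45s took 2.21 to 3.77% of counts in C57Bl6 libraries against 6.56 to 8.54% in RAG2KO libraries, and 2.42 to 4.99% in naive libraries. Summed epithelial markers lay between 6927 and 12966 CPM in all 11 libraries. 15 fibroblast and smooth muscle markers summed to 1.58 to 1.98 CPM in naive, 2.47 to 4.56 in C57Bl6 and 2.44 to 12.2 in RAG2KO libraries; 10 of the 15 stayed under 0.5 CPM everywhere, and 2 were at 0. The 10 endothelial markers summed to 2.62 to 6.29 CPM and the 20 leukocyte markers to 4.04 to 15.8 CPM in naive and tumour-derived libraries. 7 of the endothelial and 15 of the leukocyte markers stayed under 0.5 CPM everywhere, with 6 leukocyte markers at 0. The 20, the 15 and the leukocyte sums count the gene Emr1 under both of its names, Emr1 and Adgre1. The 10 glial and neuronal markers summed to 1.205 to 1.68 CPM in naive, 2.21 to 9.98 in C57Bl6 and 1.01 to 4.90 in RAG2KO libraries, with 5 under 0.5 CPM everywhere and 1 at 0. The highest of these sums was that of C57Bl6 replicate 2, where Tubb3 had 6.38 CPM. Tubb3 and the leukocyte marker Coro1a (at most 0.683 CPM) were higher in C57Bl6 than in RAG2KO libraries (adjusted p = 0.0478 and 0.0473 by edgeR). The highest fibroblast sum was that of RAG2KO replicate 2, where the collagen gene Col3a1 had 6.85 CPM. The part of these other cells in the results below was not tested. In such bulk libraries fewer cells with a gene and less RNA per cell cannot be told apart.

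Promoter sequence is shown for 4 of the genes, 3 because they hold the letters bound by SOX proteins and 1 as the most CpG-rich of the set. RefSeq promoters on GRCm38.p6 (250 bases before to 50 after a start) matched 26 of the 33 genes, with 27 promoters, and both strands were searched for ACAATG (the SOX core), CTTTGA (TCF/LEF), GGAATG (TEAD) and TGANTCA (AP-1). The SOX core was found in 3 of the 27 promoters (11.1%), against 12.6% of all 32851 promoters in the table. TCF/LEF letters were in 6 (22.2% against 16.0%), TEAD letters in 5 (18.5% against 14.7%) and AP-1 letters in 2 (7.41% against 7.81%). These are matches of letters and not measured sites. The 250 bases before the start of Ifi47 (chr11:49076337-49076586, plus strand), Ntn4 (chr10:93640799-93641048, plus strand) and C77370 (chrX:104201185-104201434, minus strand) follow, 5′ to 3′ on the strand of the gene, with ACAATG or its reverse complement CATTGT in capitals.
Ifi47: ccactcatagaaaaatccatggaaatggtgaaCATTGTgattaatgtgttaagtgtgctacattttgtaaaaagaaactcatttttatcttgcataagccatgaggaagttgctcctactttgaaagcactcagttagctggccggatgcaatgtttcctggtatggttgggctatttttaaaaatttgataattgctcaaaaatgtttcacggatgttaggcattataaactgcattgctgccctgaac
Ntn4: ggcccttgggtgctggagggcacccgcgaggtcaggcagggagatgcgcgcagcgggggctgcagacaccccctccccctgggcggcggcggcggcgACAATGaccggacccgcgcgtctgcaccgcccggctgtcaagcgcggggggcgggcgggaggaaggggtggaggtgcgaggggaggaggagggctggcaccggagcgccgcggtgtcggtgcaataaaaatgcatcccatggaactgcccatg
C77370: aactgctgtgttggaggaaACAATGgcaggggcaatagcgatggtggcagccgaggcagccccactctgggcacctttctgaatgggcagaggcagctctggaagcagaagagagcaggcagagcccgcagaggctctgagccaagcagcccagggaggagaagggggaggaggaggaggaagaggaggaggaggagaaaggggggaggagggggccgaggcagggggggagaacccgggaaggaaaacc
The match begins 218 bases before the start in Ifi47, 153 before it in Ntn4 and 231 before it in C77370. Of these, Ifi47 and Ntn4 reached 2 CPM in the constitutive SOX17OE line and C77370 did not (its level there was 0.114 CPM). The promoter of Enah (chr1:182019981-182020230, minus strand) is printed with each CG in capitals.
Enah: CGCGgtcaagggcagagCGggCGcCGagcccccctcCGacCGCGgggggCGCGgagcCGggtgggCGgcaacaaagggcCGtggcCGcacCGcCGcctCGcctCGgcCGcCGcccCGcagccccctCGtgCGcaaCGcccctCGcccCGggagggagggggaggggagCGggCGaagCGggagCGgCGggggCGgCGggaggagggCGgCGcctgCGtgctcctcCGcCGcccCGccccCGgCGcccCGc
It holds 42 CG in the 250 bases shown and 49 in all 300, where Ifi47 holds 2. CpG content split the set: 10 of its 27 promoters (37.0%) had an observed to expected CpG ratio of at least 0.6, close to the 35.8% of all promoters. The median CpG count was 14 in the set and 7 over all promoters, and the median GC content 62.3 and 52.7%.

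In naive libraries the members summed to 5.72 to 7.35 CPM, and a member had between 0 and 22 counts in the 3 naive libraries together, with a median of 10. C77370, now named Nexmif, was the only member at 0 in each. The highest naive level was 0.497 CPM, that of Def6, and the lowest tumour-derived level was 2.01 CPM, that of Wnt10a. Members just inside the naive limit were Phactr2 (0.495 CPM), Wnt6, Serpinb9 and F2r (0.451 CPM each), and the nearest gene outside it was 9530053A07Rik at 0.558 CPM. At the tumour limit Serpinb9 (2.02 CPM) lay just inside, with Jam2 and Nfatc4 (1.997 CPM each) just outside. The opposite rule, at least 2 CPM in each naive and under 0.5 CPM in each tumour-derived library, found 0 genes. It asks for low levels in 6 libraries where the first rule asks for them in 3, and the part of this in the 0 was not tested. On group means the numbers were 139 genes in the first direction and 10 in the opposite one. Nothing in the sources used here says that replicates came from separate cultures or mice, so p-values measure only the spread between these samples.

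**Figure D1:**
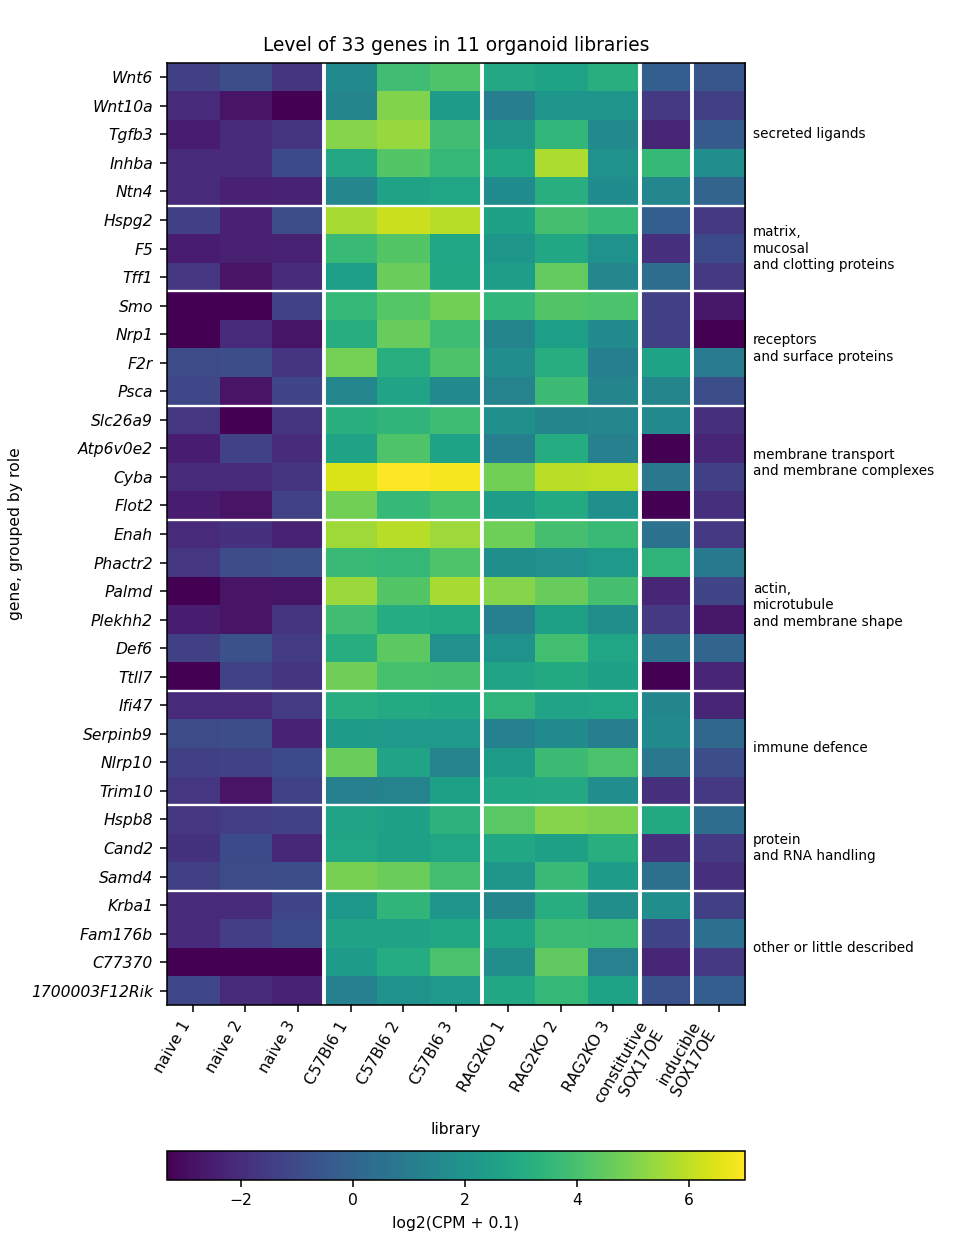
Level of each of the 33 genes (rows, grouped by role) in the 11 libraries (columns), as colour on the scale log2(CPM + 0.1). The 3 naive columns are dark throughout because the rule required under 0.5 CPM there; the 2 SOX17OE columns are dark for most genes, with Inhba, Phactr2, Hspb8 and F2r the brightest in the constitutive line.

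Per kilobase of annotated exon, the members' mean tumour-derived levels spanned 0.400 CPM per kb for Krba1 to 77.6 for Cyba. After Cyba came Tff1 (16.3 CPM per kb), Hspb8 (9.34), 1700003F12Rik (6.07) and Psca (5.92). The steadiest were Cand2 and Ifi47, whose highest tumour-derived library was 1.52 and 1.63 times the lowest. The most variable was Wnt10a, at 16.4 times.

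The question left to test within the tumour-derived organoids was whether the set differed by recipient. All 33 members passed the filter on low counts of the edgeR fit across 13720 genes. 13 members (39.4%) were higher in C57Bl6 than in RAG2KO libraries at a Benjamini-Hochberg adjusted p under 0.05 by edgeR's quasi-likelihood test, where 12.2% of all genes tested were. 2 members (6.06%), Hspb8 and 1700003F12Rik, were higher in RAG2KO, against 11.8% of all genes. The median log2 difference, C57Bl6 minus RAG2KO, was 0.53 over the members and 0.0011 over all genes. The same number of members, 13 higher in C57Bl6 and 2 in RAG2KO, had groups whose libraries did not overlap, against 24.7% and 15.8% of all genes tested; F5 passed the test although its groups overlapped, and Serpinb9 did not pass although they did not. The other 18 members had adjusted p-values of 0.101 to 0.987. By role, 4 of 6 cytoskeletal genes, 3 of 4 membrane transport and membrane complex genes, 2 of 3 matrix, mucosal and clotting genes, 2 of 4 receptors, 1 of 5 ligands and 1 of 3 protein and RNA handling genes were higher in C57Bl6, and none of the 4 immune defence genes. The roles were assigned with the values known.

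The Rn45s share separated the recipients without overlap, and with it as a covariate in the edgeR fit 0 members were called, 1 in each direction having an unadjusted p under 0.05; over all genes 1 was then called in each direction. Recipient and Rn45s share cannot be told apart in these libraries.

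**Figure D2:**
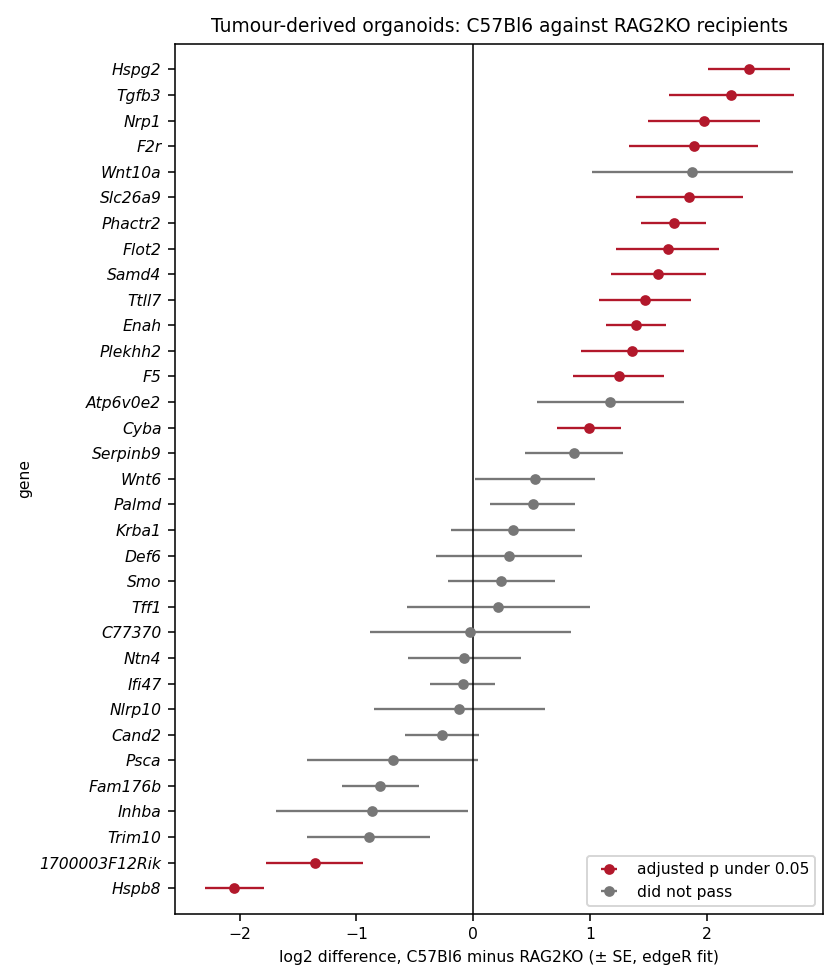
Log2 difference between C57Bl6 and RAG2KO tumour-derived organoids for each of the 33 genes, as the edgeR estimate with its standard error, 3 libraries per group. Red points passed an adjusted p of 0.05: 13 lie right of 0 (C57Bl6 higher) and 2, Hspb8 and 1700003F12Rik, left of it; grey points did not pass.

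Among the secreted ligands, Tgfb3, a TGF-beta isoform, was the one that differed by recipient. Tgfb3 had 0.0709, 0.135 and 0.198 CPM in the naive libraries, 34.6, 42.7 and 13.99 CPM in the C57Bl6 libraries and 4.28, 11.4 and 2.97 CPM in the RAG2KO libraries. The lowest C57Bl6 library was above the highest RAG2KO library, and the log2 difference was 2.21 (SE 0.53, adjusted p = 0.0177). Inhba, whose product forms activin A, had 7.36, 18.8 and 11.5 CPM in C57Bl6 and 7.01, 53.7 and 3.86 CPM in RAG2KO libraries, from 0.142, 0.135 and 0.396 CPM in naive ones. The RAG2KO libraries enclosed the C57Bl6 ones, since RAG2KO replicate 2 was the highest of all 6 and replicate 3 the lowest (adjusted p = 0.465). The canonical Wnt ligand Wnt6 had 2.94, 14.2 and 17.7 CPM in C57Bl6 and 7.33, 6.29 and 8.79 CPM in RAG2KO libraries (adjusted p = 0.478). Wnt10a, its neighbour in the genome, had 2.52, 33.1 and 5.15 CPM in C57Bl6 and 2.01, 4.25 and 4.16 CPM in RAG2KO libraries (adjusted p = 0.138). The groups overlapped for both Wnt genes, and C57Bl6 replicate 2 alone held the high Wnt10a level. Ntn4, a netrin that sits in basement membranes, had 2.63, 6.16 and 6.86 CPM and 3.11, 9.12 and 3.15 CPM in C57Bl6 and RAG2KO libraries, with overlapping groups (adjusted p = 0.923).

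The matrix gene Hspg2 showed the widest recipient difference of the set. It encodes perlecan, a heparan sulfate proteoglycan of basement membranes. Its naive libraries had 0.284, 0.0903 and 0.445 CPM, its C57Bl6 libraries 50.8, 73.05 and 59.9 CPM and its RAG2KO libraries 5.97, 15.3 and 12.1 CPM. Every C57Bl6 library was above the highest RAG2KO library, and the log2 difference was 2.36 (SE 0.35, adjusted p = 0.00332). F5, the gene of coagulation factor V, had 12.8, 18.6 and 6.54 CPM in C57Bl6 and 4.28, 6.97 and 3.86 CPM in RAG2KO libraries against 0.0709, 0.0903 and 0.0989 CPM in naive ones. The lowest C57Bl6 library fell below RAG2KO replicate 2, and F5 passed the test with a log2 difference of 1.24 (SE 0.39, adjusted p = 0.0427). Tff1, a trefoil peptide of the gastric mucosa, had 5.57, 25.1 and 7.29 CPM in C57Bl6 and 5.39, 22.8 and 2.67 CPM in RAG2KO libraries (adjusted p = 0.861). In both groups replicate 2 was the high library for Tff1, and the groups overlapped.

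Of the receptors and surface proteins, Nrp1 and F2r were higher in C57Bl6. Nrp1, a co-receptor for semaphorins and vascular endothelial growth factor, had 0, 0.135 and 0.0495 CPM in naive, 8.62, 24.3 and 13.7 CPM in C57Bl6 and 2.47, 5.55 and 3.09 CPM in RAG2KO libraries. The groups did not overlap, and the log2 difference was 1.97 (SE 0.48, adjusted p = 0.0170). F2r, the thrombin receptor PAR1, had 0.425, 0.451 and 0.198 CPM in naive, 28.3, 9.06 and 17.4 CPM in C57Bl6 and 3.24, 8.61 and 2.08 CPM in RAG2KO libraries. Its groups came close, with C57Bl6 replicate 2 at the bottom of one and RAG2KO replicate 2 at the top of the other, and the log2 difference was 1.89 (SE 0.55, adjusted p = 0.0350). F2r, Inhba and Serpinb9 lie on chromosome 13, where 341 tested genes had a median log2 shift from naive of -0.75 in C57Bl6 replicate 2; the part of that shift in their levels was not tested. Smo, which encodes Smoothened, was among the more even members, with 11.8, 19.3 and 27.8 CPM in C57Bl6 and 11.2, 18.2 and 16.99 CPM in RAG2KO libraries against 0, 0 and 0.297 CPM in naive ones. The Smo groups overlapped (adjusted p = 0.727). Psca, a lipid-anchored surface protein of gastric and urinary epithelium, had 2.68, 6.44 and 3.001 CPM in C57Bl6 and 2.34, 13.6 and 2.49 CPM in RAG2KO libraries, again overlapping (adjusted p = 0.514).

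The membrane group held the most abundant member, Cyba. Cyba encodes p22phox, the small subunit that NADPH oxidases need to make superoxide. It had 0.142, 0.135 and 0.198 CPM in naive, 86.1, 128 and 115 CPM in C57Bl6 and 28.1, 61.3 and 65.4 CPM in RAG2KO libraries. The 3 C57Bl6 libraries lay above the 3 RAG2KO libraries, and the log2 difference was 0.99 (SE 0.28, adjusted p = 0.0297). Slc26a9, an anion channel and exchanger of airway and stomach epithelium, had 0.213, 0 and 0.198 CPM in naive, 9.25, 10.7 and 13.8 CPM in C57Bl6 and 3.57, 2.55 and 2.61 CPM in RAG2KO libraries, with a log2 difference of 1.85 (SE 0.45, adjusted p = 0.0179). Flot2, a scaffold of membrane microdomains, had 0.0709, 0.0451 and 0.297 CPM in naive, 28.1, 12.1 and 15.7 CPM in C57Bl6 and 5.32, 7.76 and 3.56 CPM in RAG2KO libraries, with a log2 difference of 1.66 (SE 0.44, adjusted p = 0.0244). Neither gene had overlapping groups. Atp6v0e2, a subunit of the vacuolar proton pump, had 6.10, 17.7 and 6.27 CPM in C57Bl6 and 2.08, 8.33 and 2.14 CPM in RAG2KO libraries, and its groups overlapped through the high replicate 2 of each (adjusted p = 0.194).

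4 of the 6 genes that act on actin, microtubules or membrane shape were higher in C57Bl6 organoids. Enah, or Mena, which lengthens actin filaments at the leading edge of moving cells, had 0.142, 0.181 and 0.0989 CPM in naive, 45.6, 58.7 and 45.3 CPM in C57Bl6 and 25.95, 15.2 and 12.4 CPM in RAG2KO libraries, a log2 difference between the recipients of 1.39 (SE 0.26, adjusted p = 0.00625). Phactr2, a regulator of actin and protein phosphatase 1, had 0.213, 0.406 and 0.495 CPM in naive, 12.2, 11.7 and 17.6 CPM in C57Bl6 and 3.44, 3.62 and 4.69 CPM in RAG2KO libraries, a log2 difference of 1.72 (SE 0.28, adjusted p = 0.00392). The groups of neither gene overlapped; the 3 Phactr2 libraries of a group lay close together, while RAG2KO replicate 1 was well above the other RAG2KO libraries for Enah. Ttll7, which adds glutamate chains to tubulin, had 27.4, 15.8 and 15.3 CPM in C57Bl6 and 6.49, 7.53 and 5.88 CPM in RAG2KO libraries, a log2 difference of 1.47 (SE 0.40, adjusted p = 0.0256). Plekhh2, an actin-binding protein first known from kidney podocytes, had 14.2, 8.26 and 7.91 CPM in C57Bl6 and 2.14, 5.67 and 3.33 CPM in RAG2KO libraries, a log2 difference of 1.36 (SE 0.44, adjusted p = 0.0478). The groups of Ttll7 and Plekhh2 did not overlap, and both genes had at most 0.316 CPM in a naive library. Palmd, which encodes palmdelphin, a relative of the membrane-shaping protein paralemmin, had 43.8, 18.98 and 49.6 CPM in C57Bl6 and 34.5, 24.1 and 15.4 CPM in RAG2KO libraries, from 0, 0.0451 and 0.0495 CPM in naive ones (adjusted p = 0.326 between recipients). Def6, a signalling protein of lymphocytes, had 8.52, 20.9 and 3.63 CPM in C57Bl6 and 3.76, 14.7 and 6.77 CPM in RAG2KO libraries (adjusted p = 0.747). Palmd and Def6 had overlapping groups.

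None of the 4 immune defence genes passed the test between recipients, by edgeR or by the Wald test of DESeq2, and 0 had an unadjusted p under 0.05. Ifi47, an interferon-inducible GTPase of the immunity-related family, was even across the tumour-derived libraries, with 8.57, 7.81 and 7.24 CPM in C57Bl6 and 10.4, 6.400 and 6.77 CPM in RAG2KO libraries and 0.142, 0.135 and 0.247 CPM in naive ones (adjusted p = 0.832). Serpinb9, an intracellular inhibitor of the cytotoxic protease granzyme B, had 4.88, 4.67 and 4.56 CPM in C57Bl6 and 2.21, 3.06 and 2.02 CPM in RAG2KO libraries. Its groups did not overlap, yet it missed the threshold (adjusted p = 0.152). Nlrp10, a member of the NOD-like receptor family, ranged from 2.36 to 24.8 CPM, and both extremes were C57Bl6 libraries (adjusted p = 0.921). Trim10, a tripartite motif protein, ranged from 2.16 to 7.36 CPM (adjusted p = 0.231). Reads of the Ifi47 and Serpinb9 families can be shared between close copies, so their levels carry that uncertainty.

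Hspb8 was the member most clearly higher in RAG2KO organoids. It is a small heat shock protein that works with BAG3 to clear misfolded proteins. Hspb8 had 0.213, 0.271 and 0.297 CPM in naive, 6.52, 5.87 and 10.1 CPM in C57Bl6 and 20.6, 35.1 and 31.1 CPM in RAG2KO libraries. The lowest RAG2KO library was above the highest C57Bl6 library, and the log2 difference was -2.05 (SE 0.26, adjusted p = 0.00234). Samd4, the translational repressor Smaug1, went the other way, with 29.5, 25.1 and 14.6 CPM in C57Bl6 and 4.35, 12.4 and 5.05 CPM in RAG2KO libraries and a log2 difference of 1.58 (SE 0.41, adjusted p = 0.0214). Cand2, a cullin-associated protein of muscle, had 6.58, 5.82 and 6.76 CPM in C57Bl6 and 7.14, 5.73 and 8.73 CPM in RAG2KO libraries (adjusted p = 0.554). Of the little-described genes, 1700003F12Rik had 0.354, 0.135 and 0.0989 CPM in naive, 2.21, 3.71 and 4.56 CPM in C57Bl6 and 7.07, 11.7 and 6.30 CPM in RAG2KO libraries. Its RAG2KO libraries lay above its C57Bl6 libraries, and the log2 difference was -1.36 (SE 0.41, adjusted p = 0.0388). C77370, an X-linked gene known from neurons, ranged from 2.26 to 22.5 CPM, with both extremes in RAG2KO libraries (adjusted p = 0.987). Krba1 had 4.47, 10.7 and 4.18 CPM in C57Bl6 and 2.60, 8.44 and 3.33 CPM in RAG2KO libraries, with replicate 2 the highest in each group (adjusted p = 0.662). Fam176b, now Eva1b, ranged from 6.10 to 13.2 CPM (adjusted p = 0.101). In the GRCm38 annotation Cand2 overlaps Rpl32, 1700003F12Rik overlaps Necab3 and Palmd overlaps 4930455H04Rik on the opposite strand, and Ifi47 overlaps Olfr56 on its own strand. Def6, F5, Plekhh2, Samd4, Tff1 and Tgfb3 overlap noncoding genes on the opposite strand. The library kit keeps strand, but whether the counting used it is not given in the sources used here, so reads of such partners cannot be told apart.

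Leaving out 1 naive or tumour-derived library at a time, Hspb8, Hspg2, Phactr2 and Enah kept their call in all 9 fits. Tgfb3 lost it without RAG2KO replicate 1 (adjusted p = 0.0565), Cyba without C57Bl6 replicate 2 (0.0769) or 3 (0.0717), Nrp1 without C57Bl6 replicate 2 (0.0548) or RAG2KO replicate 3 (0.0571), and Slc26a9 without C57Bl6 replicate 3 (0.0622) or RAG2KO replicate 3 (0.0557). Flot2, Samd4 and Ttll7 each lost it in 3 fits, without C57Bl6 replicate 1 or RAG2KO replicate 1 or 3 (adjusted p = 0.0537 to 0.0864). F2r lost it in 6 fits, all but those without C57Bl6 replicate 2, RAG2KO replicate 2 or naive replicate 3 (adjusted p = 0.0513 to 0.103). 1700003F12Rik, F5 and Plekhh2 lost it in 7 of 9 fits, with adjusted p up to 0.122, 0.142 and 0.147, and each kept it in 2. 1700003F12Rik kept it without naive replicate 1 or 3, F5 without C57Bl6 replicate 3 or RAG2KO replicate 2, and Plekhh2 without RAG2KO replicate 2 or naive replicate 3. The count of members higher in C57Bl6 was 6 without RAG2KO replicate 1 and 5 without RAG2KO replicate 3, while without RAG2KO replicate 2 it was 14. RAG2KO replicate 2 stood apart within its group, with the highest of the 3 RAG2KO levels for 24 of the 33 members. The median member level was 9.12 CPM there against 4.87 and 4.16 CPM in RAG2KO replicates 1 and 3, and 8.57 to 12.1 CPM in the C57Bl6 libraries.

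The SOX17OE lines had a small share of the set at tumour-derived levels. In the constitutive line 10 of 33 members had at least 2 CPM, where 1.31% of the 10836 genes under 0.5 CPM in each naive library did. In the inducible line 1 member, Inhba, had at least 2 CPM, where 0.212% of those genes did. 14 members stayed under 0.5 CPM in the constitutive and 22 in the inducible line, 12 of them in both, and the median member level was 0.742 and 0.288 CPM. The members had been picked for being on in other libraries, so a higher share than that of all silent genes is given here as a count and not as a test. With 1 library per line there is no replicate check, and the intervals below are exact Poisson intervals that cover counting error only.

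The 10 genes in the constitutive line were Inhba, Phactr2, Hspb8, F2r, Krba1, Serpinb9, Slc26a9, Ntn4, Ifi47 and Psca. Inhba reached 11.9 CPM (95% interval 10.4 to 13.7) in the constitutive and 3.22 CPM (2.44 to 4.19) in the inducible line, against at most 0.396 CPM in a naive library. The constitutive value lay within the range of the 6 tumour-derived libraries, 3.86 to 53.7 CPM, and the inducible value below it. Phactr2 reached 10.4 CPM (8.93 to 12.01) and 1.73 CPM (1.17 to 2.47) in the constitutive and inducible lines. Hspb8 reached 7.70 CPM (6.46 to 9.12) and 1.21 CPM (0.749 to 1.85). F2r reached 6.34 CPM (5.21 to 7.63) and 1.79 CPM (1.21 to 2.53). All of these were above every naive library in both lines, and in the constitutive line within the tumour-derived range. Krba1 (3.20 CPM, interval 2.41 to 4.15), Serpinb9 (3.03 CPM, 2.27 to 3.96), Slc26a9 (2.85 CPM, 2.12 to 3.76) and Psca (2.51 CPM, 1.82 to 3.37) were also within that range. That made 8 members at or above their lowest tumour-derived library. The intervals of Krba1, Slc26a9 and Psca reached below their lowest tumour-derived libraries (2.60, 2.55 and 2.34 CPM), and that of Psca below 2 CPM. Ntn4 (2.63 CPM, interval 1.92 to 3.50) was just under its lowest tumour-derived library, and Ifi47 (2.57 CPM, interval 1.87 to 3.44) was well under its range of 6.400 to 10.4 CPM.

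Most of the members with recipient differences stayed low in both lines. So did Palmd, Atp6v0e2, Wnt6, Wnt10a and Smo, for which no recipient difference was called. Cyba had 1.66 CPM in the constitutive and 0.288 CPM in the inducible line, against at least 28.1 CPM in a tumour-derived library. Enah had 1.37 and 0.230 CPM and Samd4 1.30 and 0.173 CPM, above their naive libraries in the constitutive line and far below any tumour-derived one. Hspg2 (0.742 and 0.230 CPM), Tgfb3 (0.114 and 0.691 CPM) and Palmd (0.114 and 0.346 CPM) were under 1 CPM in both lines. Atp6v0e2, Flot2 and Ttll7 had 0 counts in the constitutive line, which allows up to 0.171 CPM by the floor of 3 counts, and Nrp1 had 0 in the inducible line, which allows up to 0.173 CPM. Of the Wnt ligands, Wnt6 had 0.742 and 0.576 CPM and Wnt10a 0.228 and 0.288 CPM. Smo had 0.285 and 0.0576 CPM, where no tumour-derived library had under 11.2 CPM.

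**Figure D3:**
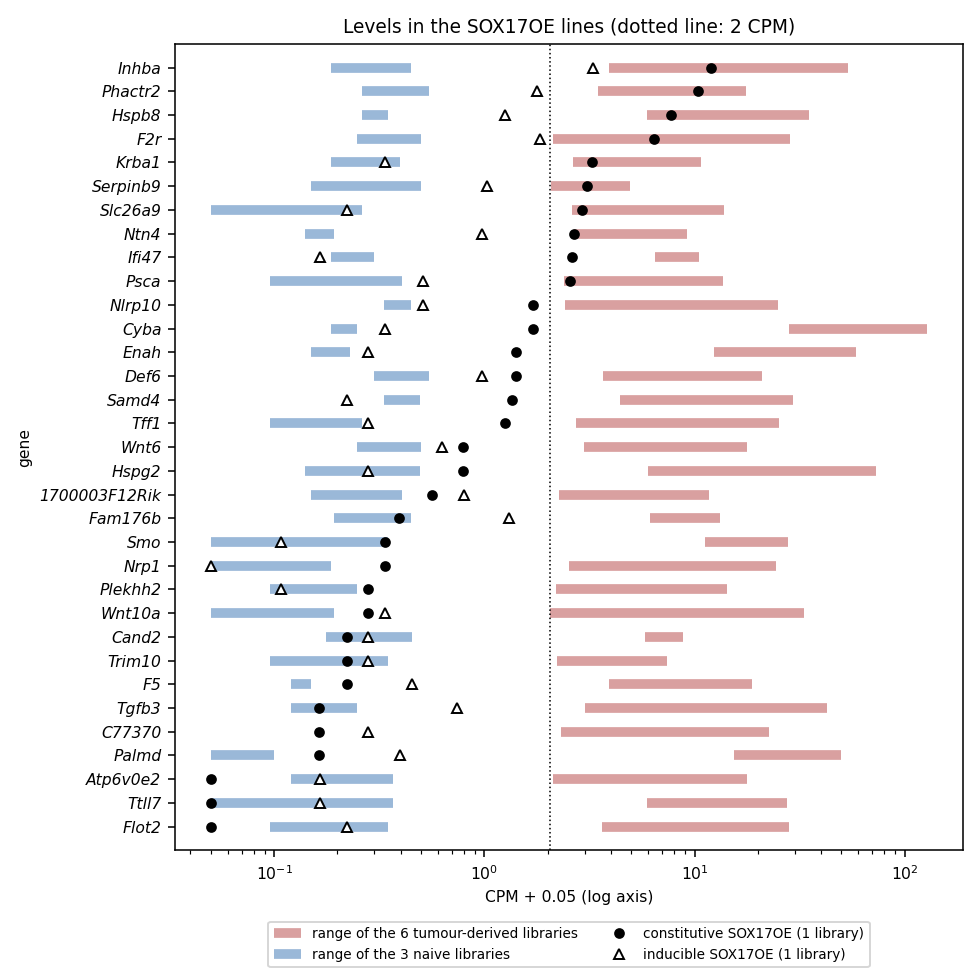
Level of each member in the constitutive (filled circle) and inducible (open triangle) SOX17OE library beside the range of the 3 naive (blue bar) and 6 tumour-derived libraries (red bar), in CPM + 0.05 on a log axis; C77370 has no blue bar because it was at 0 in each naive library. 10 circles and 1 triangle lie right of the dotted line at 2 CPM, and 3 circles, those of Atp6v0e2, Ttll7 and Flot2, lie at 0 counts.

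The constitutive line, which had the more Sox17 of the lines, was the higher one for 21 members and the inducible line for 12. Of the 10 members with at least 2 CPM in a line, 6 were at least 4-fold higher in the constitutive line and 0 in the inducible line. Of all 11321 genes at that level, silent in naive organoids or not, 2.5% and 1.66% were. Those genes were not held low in naive organoids, so their shares are not a like background. All 10 members passed the 2 CPM limit in the constitutive line and only 1, Inhba, in the inducible line. The 6 against 0 were therefore in large part set by that limit, and are given as a count and not as a test. The ratio of constitutive to inducible was 22.3 (95% interval 5.82 to 189.8) for Ifi47, 16.5 (95% interval 5.34 to 82.8) for Slc26a9 and 11.1 (95% interval 4.48 to 35.5) for Krba1. It was 6.37 (95% interval 4.005 to 10.6) for Hspb8, 6.01 (95% interval 4.07 to 9.17) for Phactr2 and 5.45 (95% interval 2.54 to 13.4) for Psca. Among members under 2 CPM in both lines, the inducible line had the higher Tgfb3 (0.691 against 0.114 CPM) and Fam176b (1.27 against 0.342 CPM). Epithelial markers summed to 6927 CPM in the constitutive and 8387 CPM in the inducible line, and fibroblast markers to 8.10 and 1.21 CPM, of which Col3a1 made 5.19 CPM in the constitutive line. Endothelial markers summed to 10.96 and 3.86 CPM and leukocyte markers to 15.1 and 5.93 CPM, with Emr1 (0.0571 CPM in the constitutive line) counted under both names. Their part in the levels of the members was not tested.

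Relatives of the members, which the rule had not picked, were then compared with naive organoids. 14 family lists, written with the members known, held 155 relatives, of which 100 were tested. In C57Bl6 organoids 20 relatives were higher and 6 lower than naive, where 9.5% and 5.85% of all genes were, with a median log2 difference of 0.44 over relatives and 0.023 over all genes. In RAG2KO organoids 26 were higher and 11 lower, where 16.0% and 13.3% of all genes were, with medians of 0.57 and 0.022. With relatives at 0 in a group set to their bound against the floor, the medians over relatives were 0.44 and 0.51. Both comparisons share the 3 naive libraries. With the Rn45s share as a covariate the counts in C57Bl6 were 17 and 3 and in RAG2KO 1 and 0. Genes with 0 naive counts have fold changes that depend on the prior count, and no fold is given for them.

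Among the Wnt ligands, Wnt7a and Wnt7b rose in both groups beside the members Wnt6 and Wnt10a. Wnt7a went from 0.884 ± 0.361 CPM (SD, n = 3) in naive to 30.9 ± 12.1 CPM in C57Bl6 organoids (log2 difference 5.12, SE 0.61, adjusted p = 0.000811) and 25.8 ± 17.96 CPM in RAG2KO organoids (log2 difference 4.94, SE 0.60, adjusted p = 0.000841). Wnt7b went from 7.24 ± 0.501 CPM to 108 ± 53.1 CPM (3.89, SE 0.40, adjusted p = 0.000414) and 44.8 ± 18.8 CPM (2.71, SE 0.39, adjusted p = 0.00154). Both ligands averaged above 0.5 CPM in naive organoids, the limit that the members had to stay under. Of 9 Wnt relatives tested, 2 were called higher in C57Bl6 and 6 in RAG2KO organoids; of the 6, Wnt5b lost its call in 5 of 9 fits with 1 library left out, Wnt9a in 4, Wnt16 in 3 and Wnt11 in 2, each time a naive or RAG2KO library. Wnt7a had 10.3 CPM in the constitutive and 2.53 CPM in the inducible line.

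Smo was the only member of the set in the Hedgehog family, and the pathway targets Gli1 and Ptch1 were not called higher beside it. Gli1, a target and an effector, averaged 0 CPM in naive, 0.186 CPM in C57Bl6 and 0.0810 CPM in RAG2KO organoids, too few counts to be tested. The receptor Ptch1, which holds Smoothened off until a ligand binds and is itself a target, averaged 16.8 CPM in naive, 13.9 CPM in C57Bl6 (adjusted p = 0.598) and 7.07 CPM in RAG2KO organoids, where it fell by 1.16 on the log2 scale (adjusted p = 0.0271). That call was lost without naive replicate 2 or 3 or RAG2KO replicate 1 or 2. The ligands Shh and Ihh averaged at most 1.76 CPM in a group, and had 6.91 and 7.99 CPM in the constitutive SOX17OE line, where Smo had 0.285 CPM. The third ligand, Dhh, averaged 0.135 CPM in naive, 2.03 CPM in C57Bl6 and 0.562 CPM in RAG2KO organoids and did not pass the test against naive (adjusted p = 0.0541 and 0.211). C57Bl6 replicate 1 alone held the high Dhh level, 5.26 CPM. Of 9 Hedgehog relatives tested, 2 were called higher than naive in C57Bl6 and 0 in RAG2KO organoids. Cdon averaged 5.17 CPM in naive and 8.34 CPM in C57Bl6 organoids (log2 difference 0.68, adjusted p = 0.0459 by edgeR). Hhat averaged 0 CPM in naive and 0.519 CPM in C57Bl6 organoids (adjusted p = 0.0409). The calls of Cdon and Hhat were lost in 8 and 7 of 9 fits with 1 library left out.

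Around Tgfb3 and Inhba, the receptors were already expressed in naive organoids: Tgfbr2 averaged 118 CPM, Tgfbr1 25.4 CPM, Acvr1b 42.4 CPM and Acvr2a 23.98 CPM. Acvr1b was lower than naive in C57Bl6 (log2 difference -0.72, adjusted p = 0.0270) and RAG2KO organoids (-0.65, adjusted p = 0.0260). Those calls were lost in 4 and 5 of 9 fits with 1 library left out. Tgfbr2 was higher in C57Bl6 than in naive (0.70, adjusted p = 0.0447, lost in 7 of 9 fits) and RAG2KO organoids (0.98, adjusted p = 0.0101). Tgfbr1 and Acvr2a were not called against naive (adjusted p = 0.101 to 0.849). Fst, or follistatin, the secreted activin inhibitor, rose from 6.003 ± 0.431 CPM to 27.7 ± 9.58 CPM in C57Bl6 (log2 difference 2.21, SE 0.49, adjusted p = 0.0164) and 27.4 ± 20.6 CPM in RAG2KO organoids (2.27, SE 0.49, adjusted p = 0.00962). Ltbp3, which binds latent TGF-beta in the matrix, rose from 5.91 ± 4.19 CPM to 38.2 ± 15.1 CPM (2.68, SE 0.53, adjusted p = 0.00942) and 38.2 ± 17.4 CPM (2.77, SE 0.53, adjusted p = 0.00580). In C57Bl6 organoids Fst lost its call whichever of the 3 naive replicates was left out (adjusted p up to 0.0710) and Ltbp3 without naive replicate 2 (0.0509); in RAG2KO organoids both kept it. Of the other isoforms, Tgfb1 averaged 11.9, 16.2 and 13.7 CPM in naive, C57Bl6 and RAG2KO organoids and was not called (adjusted p = 0.497 and 0.627 against naive). Tgfb2 rose from 0.0796 CPM to 1.69 CPM in C57Bl6 (4.19, SE 1.25, adjusted p = 0.0492) and 2.92 CPM in RAG2KO organoids (5.06, SE 1.26, adjusted p = 0.0156). In C57Bl6 organoids its call was lost in 6 of 9 fits, without C57Bl6 replicate 2, any single naive replicate, or RAG2KO replicate 1 or 3, and in RAG2KO organoids without naive replicate 2.

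**Figure D4:**
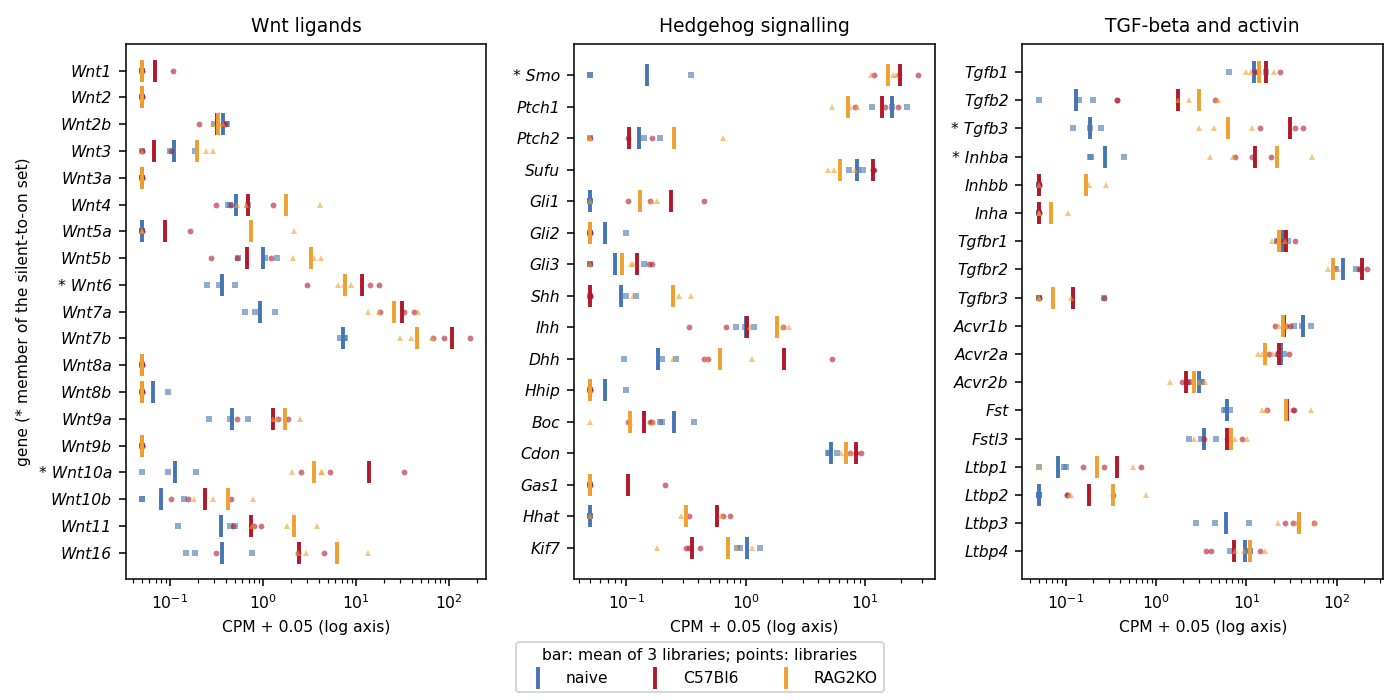
Level of Wnt ligands, Hedgehog components and TGF-beta or activin genes in naive (blue), C57Bl6 (red) and RAG2KO (orange) organoids, in CPM + 0.05 on a log axis, with 1 point per library and a bar at the mean of 3; an asterisk marks members of the set. Wnt7a and Wnt7b rise beside Wnt6 and Wnt10a, while Gli1, Gli2 and Gli3 stay near the left edge beside Smo.

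For other members a close relative was already abundant in naive organoids. Vasp, of the Ena/VASP family of Enah, averaged 343, 278 and 241 CPM in naive, C57Bl6 and RAG2KO organoids, and Flot1, the partner of Flot2, 24.3, 25.7 and 23.4 CPM. Neither passed the test in either group (adjusted p = 0.0643 to 0.941). The third Ena/VASP gene, Evl, rose from 1.59 CPM to 8.598 CPM in C57Bl6 (2.42, SE 0.46, adjusted p = 0.00674) and 7.94 CPM in RAG2KO organoids (2.40, SE 0.46, adjusted p = 0.00486). F2rl1, the protease-activated receptor PAR2, averaged 57.97, 87.5 and 61.3 CPM, and Nrp2 50.6, 65.9 and 27.3 CPM. Nrp2 did not pass in C57Bl6 (adjusted p = 0.183) and fell by 0.81 on the log2 scale in RAG2KO organoids (adjusted p = 0.00897). Unc5b, a netrin receptor, fell from 164 CPM to 71.4 CPM in C57Bl6 (adjusted p = 0.00518) and 79.7 CPM in RAG2KO organoids (adjusted p = 0.0101). Procr, the endothelial protein C receptor, rose from 1.57 CPM to 46.2 CPM (4.87, SE 0.79, adjusted p = 0.00408) and 23.01 CPM (3.94, SE 0.77, adjusted p = 0.00655).

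Of the oxidase partners of Cyba, Nox1 stayed under 1 CPM on average. It is the catalytic subunit of colon epithelium and averaged 0.524, 0.412 and 0.756 CPM in naive, C57Bl6 and RAG2KO organoids (adjusted p = 0.809 and 0.617 against naive). Its organizer Noxo1 averaged 75.8, 46.5 and 82.6 CPM; the lower level in C57Bl6 passed the test (adjusted p = 0.0423) and was lost without C57Bl6 replicate 1 or 3, naive replicate 1 or 2, or RAG2KO replicate 1. Its activator Noxa1 averaged 20.6 CPM in naive and 23.8 CPM in C57Bl6 organoids (adjusted p = 0.323) and rose to 39.4 CPM in RAG2KO organoids (1.02, SE 0.13, adjusted p = 0.000757). Of 14 basement membrane relatives of Hspg2 tested, 4 were higher than naive in C57Bl6 organoids, and 4 were higher and 2 lower in RAG2KO organoids. Lamb2, Agrn and Col4a5 rose in both groups. Col4a5 went from 0.0401 CPM in naive to 1.91 CPM in C57Bl6 (adjusted p = 0.0175 by edgeR) and 1.40 CPM in RAG2KO organoids (adjusted p = 0.0156). Each of these Col4a5 calls was lost in 3 of 9 fits with 1 library left out. Lamb2, a laminin chain, went from 7.49 CPM to 39.3 CPM (2.38, SE 0.28, adjusted p = 0.000612) and 39.04 CPM (2.46, SE 0.28, adjusted p = 0.000473). Agrn, or agrin, another heparan sulfate proteoglycan, went from 118 to 233 CPM (adjusted p = 0.0136, lost without naive replicate 1 or 2) and 241 CPM (adjusted p = 0.00522). The genes that fell in RAG2KO organoids were Col4a1, a type IV collagen chain, from 161 to 67.9 CPM (-1.15, SE 0.31, adjusted p = 0.0220, lost without naive replicate 3 or RAG2KO replicate 1 or 2), and Nid2, or nidogen, from 0.964 to 0.0378 CPM (adjusted p = 0.0465, lost without naive replicate 2 or 3 or any single RAG2KO replicate). The heat shock gene Hspb1 rose from 5.47 CPM to 63.7 CPM (3.53, SE 0.60, adjusted p = 0.00507) and 69.4 CPM (3.75, SE 0.61, adjusted p = 0.00294), with no recipient difference called (adjusted p = 0.787), whereas Hspb8 was higher in RAG2KO organoids; the difference between these genes was not tested. In the same family list Bag3 was higher in C57Bl6 than in RAG2KO organoids (0.75, SE 0.17, adjusted p = 0.0120). Hspb11 was higher in RAG2KO organoids (-1.35, SE 0.24, adjusted p = 0.00500). Serpinb6b, of the same serpin clade as Serpinb9, rose from 0.312 CPM to 4.37 CPM (3.77, SE 0.56, adjusted p = 0.00208) and 2.33 CPM (2.94, SE 0.56, adjusted p = 0.00475). Irgm2, of the GTPase family of Ifi47, went from 0.475 CPM to 6.98 CPM in RAG2KO organoids (3.95, SE 0.65, adjusted p = 0.00243) and to 2.91 CPM in C57Bl6 organoids (adjusted p = 0.0211), a call lost without C57Bl6 replicate 1 or naive replicate 1 or 2.

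Few members were in the broader pathway lists. The list of 103 secreted signals and antagonists held 4 (Inhba, Tgfb3, Wnt6 and Wnt10a), the list of 115 adhesion and guidance genes 2 (Nrp1 and Ntn4), the list of 87 matrix and remodelling genes 1 (Hspg2), that of 33 endothelial and SOXF-linked genes 1 (Nrp1) and that of 53 fetal, gastric and tuft genes 1 (Tff1). The lists of 102 developmental transcription factors, 59 interferon-induced genes, 69 cilium genes, 93 neuronal genes and 58 germline genes held none. The interferon-induced list did not include Ifi47, the interferon-inducible GTPase of the set, so its lack of members depends on how it was written. Between recipients, 5 of 78 tested secreted signals were higher in C57Bl6 and 9 in RAG2KO, 11 and 5 of 85 adhesion and guidance genes, 8 and 3 of 60 matrix genes, 4 and 0 of 17 endothelial and SOXF-linked genes and 3 and 0 of 35 fetal, gastric and tuft genes, where 12.2% of all genes tested were higher in C57Bl6 and 11.8% in RAG2KO. At an unadjusted p under 0.05, 1 endothelial and SOXF-linked gene and 4 fetal, gastric and tuft genes were higher in RAG2KO, and the Wald test of DESeq2 called 0 and 2. The median log2 differences of these 5 lists were -0.02, 0.08, -0.09, -0.25 and 0.15, against 0.0011 over all genes tested, and did not move at 2 decimals with genes at 0 in a group set to their bound. The widest shift among the 10 lists was that of the interferon-induced genes, which ran the other way from most of the called members. 15 of its 53 tested genes were higher in RAG2KO and 0 in C57Bl6 by edgeR (2 in C57Bl6 at an unadjusted p under 0.05, and 23 and 1 by the Wald test of DESeq2), with a median log2 difference of -1.201. The count higher in RAG2KO was 7 to 9 without RAG2KO replicate 2 or 3, C57Bl6 replicate 3 or naive replicate 2, 26 without RAG2KO replicate 1, 4 with a replicate block and 0 with the Rn45s covariate (3 at an unadjusted p under 0.05). Of the 4 lists left, 5 of 59 developmental transcription factors, 4 of 53 cilium, 3 of 48 neuronal and 0 of 15 germline genes were higher in C57Bl6, and 7, 4, 6 and 2 in RAG2KO; 1 germline gene was higher in C57Bl6 at an unadjusted p under 0.05 and 0 by the Wald test.

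The members were spread over 16 chromosomes, with 5 on chromosome 1 and 4 each on chromosomes 6 and 17. Wnt6 and Wnt10a are next to each other on chromosome 1, with no protein-coding gene and 6.70 kb between them in the GRCm38 table. Krba1 and Atp6v0e2 on chromosome 6 are separated by 2 protein-coding genes, and the next closest pair, Def6 and Tff1 on chromosome 17, by 46. The neighbours differed in level by library: C57Bl6 replicate 2 had the most Wnt10a of the 6 tumour-derived libraries, while C57Bl6 replicate 3 had the most Wnt6. Krba1 and Atp6v0e2 were both highest in C57Bl6 replicate 2 and next highest in RAG2KO replicate 2. The 439 tested genes of chromosome 6, where Smo and Cand2 lie too, had a median log2 shift from naive of 0.25 in RAG2KO replicate 2 and 0.0033 in C57Bl6 replicate 2, and its part in these levels was not tested.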

How the data were processed

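Poly(A) RNA libraries were made with a directional kit, per the labels' protocols. The authors deposited expected counts per gene; per the submitters' processing notes, Bowtie, RSEM and mm9 were used, and their versions and the annotation were not given in the sources used here. Expected counts were rounded to whole numbers. CPM values are expected counts over the library total; the test used TMM scaling. Samples were grouped by their labels into 5 groups of 3, 3, 3, 1 and 1. Genes passing filterByExpr (13720) were fitted across all 11 libraries by robust quasi-likelihood in edgeR 4.0.16, under R 4.3.3 (biological coefficient of variation 25.3%, 6 residual degrees of freedom), two-sided, with Benjamini-Hochberg adjustment over all genes and calls under 0.05. The script was tested on simulated data. A standard error is the absolute log2 difference over the square root of F.

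The members, roles and lists were chosen with earlier results of these data known. All 33 members are named, with tumour-derived values by library for those called between recipients or on in a SOX17OE line; relatives named were chosen after their values were seen, and their comparison with naive organoids was added then. Gene names, chromosomes, neighbours, exon lengths and promoters came from GRCm38 tables matched by symbol; no coordinates of the mm9 files are given. Lines were compared by exact 95% intervals on counts. Alternatives were DESeq2 1.42.0 size factors and its Wald test, library totals, upper quartile scaling, other filters and CPM limits, a fit of the 6 tumour-derived libraries, a replicate block, an Rn45s covariate and each library left out.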

Additional observations from a re-analysis of the deposited data

How the results depend on the processing

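The direction of all 15 members called between recipients held under every alternative fitted. The count of members higher in C57Bl6 (13) was 11 to 13 under the other scalings, filters and the Wald test of DESeq2, 8 with only the 6 tumour-derived libraries and 0 with the Rn45s covariate, and 5 to 14 with 1 library left out; the count higher in RAG2KO (2) was 0 with the Rn45s covariate and 1 to 2 with 1 library left out. Over all genes, library totals called 2263 higher in C57Bl6 and 1290 in RAG2KO, and upper quartile scaling 1150 and 2017, against 1677 and 1618. Whether the replicate numbers pair the samples is not given in the sources used here. The deviations of same-numbered C57Bl6 and RAG2KO libraries correlated at -0.33, 0.12 and 0.096, and not every library correlated best with its own number. Deviations within a group cancel out for each gene, so these correlations cannot decide whether the numbers pair the samples. A replicate block called 9 members higher in C57Bl6 and 1 in RAG2KO. The numbers were 12 and 1 with naive libraries kept in the block fit, which was chosen after seeing the data. The set itself held 10 genes at a limit of 5 CPM and 86 at 1 CPM in tumour-derived libraries, 13 at under 0.25 CPM and 63 at under 1 CPM in naive libraries, 34 to 43 with 1 library left out, 34 with TMM library sizes and 36 (31 shared) without Rn45s in the totals. In the constitutive line 16 members had at least 1 CPM and 4 at least 5 CPM, and in the inducible line 5 and 0; 10 members passed a 2-fold limit between the lines. Alternatives for the relatives and the pathway lists were chosen after seeing the data: relatives higher than naive numbered 10 to 24 in C57Bl6 and 17 to 29 in RAG2KO with 1 library left out, and those lower 2 to 7 and 5 to 12. With the Rn45s covariate 3 were lower in C57Bl6, 1 was higher and 0 were lower in RAG2KO. In the naive libraries a member had at most 22 counts in all, so differences among naive levels were not detectable at this depth.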
